A study of Mus musculus with 27 samples.

Results

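Among 27 libraries of cells sorted from lymph nodes or pancreatic islets of NOD mice, 4 carried a mesothelial expression profile and 8 an adventitial fibroblast profile, and these 12 libraries are compared here. The mesothelial-type libraries were those with more than 100 CPM of Msln (reads of the gene per 1000000 reads in genes). The adventitial-type libraries were those with under 100 CPM each of Msln, of the leukocyte gene Ptprc and of the lymphoid stroma gene Ccl21a. The other 15 libraries had over 100 CPM of Ptprc or Ccl21a and were not compared. The population named in the labels was ignored. Levels were whole-transcriptome RNA-seq read counts per gene.

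By label, the 4 mesothelial-type libraries were lymph node fibroblastic reticular cells (LN FRC) TG- replicate 2, islet CD45 TG+ replicate 1, islet gp38 high TG- replicate 1 and islet gp38 low TG- replicate 4. The 8 adventitial-type libraries were LN FRC TG- replicate 1, islet CD45 TG+ replicates 2 and 4, islet gp38 high TG+ replicates 1 and 2, islet gp38 low TG+ replicates 2 and 4, and islet gp38 low TG- replicate 2. TG+ mice were NOD with the Ins2-CCL21 transgene, which drives the chemokine CCL21 from an insulin promoter in beta cells, and TG- mice were NOD/ShiLtJ without it. All were 12 weeks old. By label, the LN FRC libraries came from skin-draining lymph nodes and the others from pancreatic islets. Genotype was uneven, with 1 TG+ and 3 TG- libraries on the mesothelial side and 6 TG+ and 2 TG- on the adventitial side. Whether libraries with the same label are different mice is not stated, so p-values measure the spread between libraries, which may be technical.

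The profiles did not follow the labelled populations. Both kinds of library were found under each of the 4 labelled populations, and the libraries labelled CD45 among the 12 held no more than 1.15 CPM of Ptprc, the gene of the CD45 protein. The 3 genes of the rule left wide gaps. Msln lay at 573 to 830 CPM in the mesothelial-type libraries and at 0.67 to 2.52 CPM in the adventitial-type libraries, and thresholds of 10 or 300 CPM chose the same 4 and 8. The highest Ptprc below 100 CPM among all 27 libraries was 5.79 CPM and the lowest above it 169.2 CPM. For Ccl21a these edges were 5.28 and 2162 CPM.

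The mesothelium is the single layer of flat epithelial cells that covers the organs and walls of the body cavities, pancreas included. Its cells arise from mesoderm, keep keratins and tight junctions together with mesenchymal genes such as Wt1, and make a lubricating surface of mucins and glycoproteins. Adventitial fibroblasts lie around vessels, ducts and at tissue borders; they express Pi16, Cd34 and Dpp4 and lay down collagen, fibrillin and elastin.

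Because the libraries were chosen by their own expression, differences in gene levels between them are given as description with no p-value. A gene is called separated where its CPM ranges did not overlap and the fitted difference was at least 2-fold. The ranges used CPM from each library's raw total, while the fit also scaled the libraries (TMM). Ratios of CPM and log2 differences can therefore differ. Every log2 difference is the mesothelial-type minus the adventitial-type value with its SE from a negative binomial fit over all 12 libraries. Of 15975 genes fitted, 1803 (11.3%) were separated higher in the mesothelial-type libraries and 1034 (6.47%) lower, and the median log2 difference of all genes was -0.02. Positive log2 differences made up 49% of the genes fitted. The part of the unlike scaling in the uneven counts of separated genes was not tested. The mesothelial-type libraries had 14215750 to 20900679 reads in genes and the adventitial-type libraries 8959919 to 25194443. In bulk libraries, fewer cells of a type and less RNA per cell cannot be told apart.

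One library measure also moved with the profile. Of the uniquely mapped reads, 27.2% to 34.8% overlapped no annotated gene's exons on the counted strand in the 4 mesothelial-type libraries, against 14.3% to 24.5% in the 8 adventitial-type libraries. The exact two-sided permutation test of the difference in means gave p = 0.00404 (30.6 ± 3.58% and 19.8 ± 3.51%, SD, n = 4 and 8; adjusted p = 0.0162 over 4 library measures). Reads in genes (adjusted p = 0.505), unmapped reads (0.113) and genes with at least 10 reads (0.0646) missed the threshold in the same exact permutation tests. Its part in the differences below was not tested.

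Of the 18 genes on the mesothelial identity list, 17 were fitted and 16 were separated higher, with a median log2 difference of 6.19. Msln itself chose the libraries, and all of these genes were read in the libraries so chosen, so the counts describe them and support nothing further. Mesothelial-type values are given below in the order LN FRC TG- replicate 2, islet CD45 TG+ replicate 1, islet gp38 high TG- replicate 1 and islet gp38 low TG- replicate 4. Msln (ENSMUSG00000063011.6, chromosome 17, 25748613 to 25754378, mm10) encodes mesothelin, the surface protein for which the profile is named. Upk3b (ENSMUSG00000042985.7, chromosome 5, 136038496 to 136046487), which encodes the membrane plaque protein uroplakin 3B, stood at 2177, 2099, 1461 and 2159.6 CPM in mesothelial-type libraries, against 4.67 to 9.82 CPM (median 6.55) in the adventitial-type libraries, a log2 difference of 7.97 ± 0.29. All 4 libraries were far above the other 8, and the highest value in the remaining 15 libraries was 2.25 CPM. Muc16, the large membrane mucin that binds mesothelin, stood at 2092, 2207, 1447 and 2560.0 CPM in mesothelial-type libraries, against 0.565 to 2.86 CPM (median 2.04) in adventitial-type libraries (log2 difference 9.99 ± 0.38).

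Wt1 (ENSMUSG00000016458.14, chromosome 2, 105126529 to 105173616), the zinc finger factor of the coelomic lining, was a graded case. It stood at 480.2, 444, 253 and 469 CPM in mesothelial-type libraries, against 33.7 to 73.7 CPM (median 50.9) in the adventitial-type libraries (log2 difference 2.72 ± 0.27). The ranges were apart, yet the adventitial-type libraries held clear Wt1 signal, where the other 15 libraries had at most 4.89 CPM. The tetraspanin uroplakin Upk1b (165 to 249 CPM mesothelial-type, 0.063 to 0.558 CPM adventitial-type), the leucine-rich repeat protein Lrrn4 (758 to 1208 CPM mesothelial-type, 1.01 to 3.68 CPM adventitial-type), the zinc finger factor Bnc1 (174 to 303 CPM mesothelial-type, 0.137 to 0.893 CPM adventitial-type) and the neuronal membrane glycoprotein Gpm6a (436 to 617 CPM mesothelial-type, 1.45 to 9.78 CPM adventitial-type) were near 0 on the adventitial side. Rspo1, Cldn15, Nkain4, Hspb1, Slc9a3r1 and Aldh1a2 were intermediate, with log2 differences of 4.0 ± 0.26, 4.43 ± 0.23, 4.80 ± 0.27, 3.41 ± 0.24, 2.74 ± 0.29 and 1.73 ± 0.26. Calretinin, from Calb2, is used as a stain for human mesothelium. No Calb2 read was found in any mesothelial-type library, a floor of 3 reads or 0.144 to 0.211 CPM, and the adventitial-type libraries had at most 1.44 CPM.

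Within the 4 libraries, islet gp38 high TG- replicate 1 was the lowest for 16 of the 17 fitted mesothelial genes. Summed over the list, it held 6709 CPM, against 9834 to 10227 CPM in the other 3. That library also had the most RNA of pancreatic ducts. The 14 ductal marker genes summed to 3348 CPM there, against 568, 669 and 1377 CPM in islet CD45 TG+ replicate 1, LN FRC TG- replicate 2 and islet gp38 low TG- replicate 4. Its part in the lower mesothelial values was not tested.

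**Figure D1:**
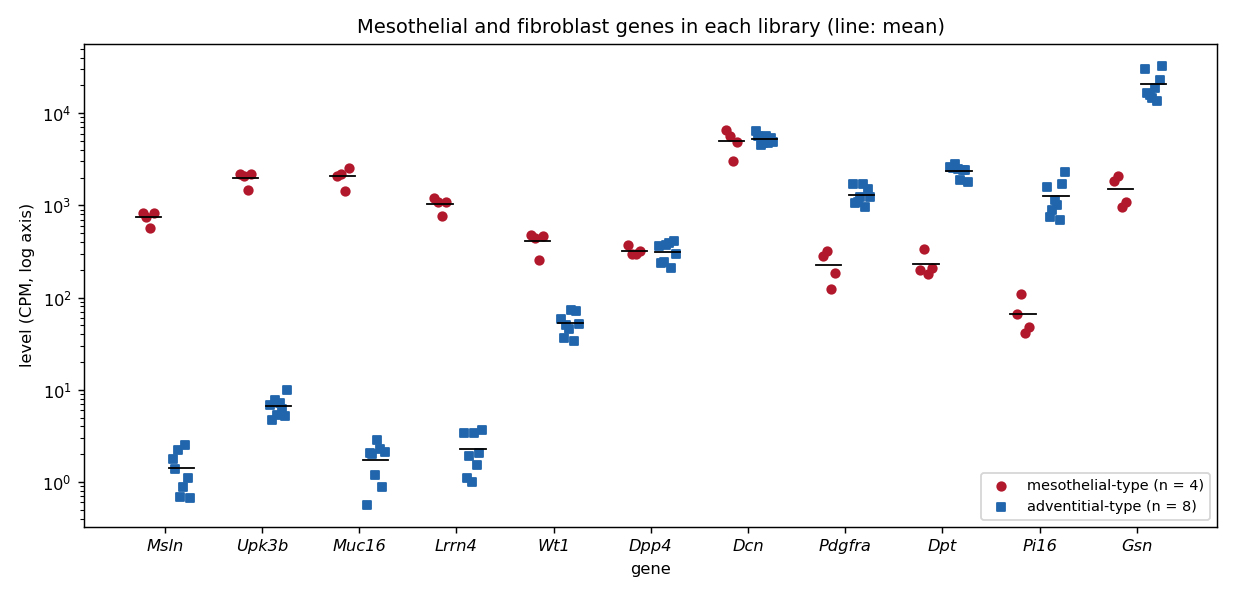
Level in CPM (log axis) of 11 mesothelial and fibroblast genes, with 1 point per library, mesothelial-type libraries (n = 4) left and adventitial-type libraries (n = 8) right of each gene's tick, and a line at the mean. Msln, Upk3b, Muc16, Lrrn4 and Wt1 are apart and higher in the mesothelial-type libraries, Pdgfra, Dpt, Pi16 and Gsn apart and lower, and Dpp4 and Dcn overlap.

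Some epithelial genes were separated between the profiles and others overlapped. Of 28 keratin, junction and polarity genes, 11 (39.3%) were separated higher in the mesothelial-type libraries and 0 lower, with a median log2 difference of 0.51. Among all fitted genes 11.3% were higher and 6.47% lower. Keratin 19 (Krt19) stood at 629.9, 702, 586 and 664 CPM in mesothelial-type libraries, against 31.9 to 139 CPM (median 79.9) in adventitial-type libraries (log2 difference 2.78 ± 0.35). Krt7 behaved alike, at 151 to 238 CPM in mesothelial-type libraries, against 6.14 to 59.6 CPM in adventitial-type libraries. Ezrin (Ezr), which ties actin to the membrane of microvilli, was at 538 to 712 CPM in mesothelial-type libraries, against 44.6 to 198 CPM in adventitial-type libraries. Its binding scaffold Slc9a3r1 was at 277 to 341 CPM in mesothelial-type libraries, against 17.9 to 64.8 CPM in adventitial-type libraries. The polarity genes Crb2 (141 to 238 CPM mesothelial-type, 0.823 to 3.13 CPM adventitial-type) and Pard6b (135 to 152 CPM mesothelial-type, 4.02 to 50.6 CPM adventitial-type), the junction proteins F11r (259 to 392 CPM mesothelial-type, 11.8 to 144 CPM adventitial-type) and Cgn (164 to 288 CPM mesothelial-type, 7.25 to 129 CPM adventitial-type) and the cadherin Cdh11 (401 to 870.4 CPM mesothelial-type, 40.8 to 117 CPM adventitial-type) were separated as well. Cdh11 is a mesenchymal cadherin, and was higher here in the keratin-rich libraries.

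E-cadherin (Cdh1) was not separated. It stood at 73.6, 53.2, 848 and 288 CPM in the mesothelial-type libraries, against 46.3 to 625 CPM (median 397) in adventitial-type libraries. The highest mesothelial-type value was again in islet gp38 high TG- replicate 1, the library richest in ductal RNA. Epcam (18.4 to 224 CPM mesothelial-type, 10.2 to 184 CPM adventitial-type), Krt8 (193 to 769 CPM mesothelial-type, 66.4 to 533 CPM adventitial-type), Krt18 (165 to 646 CPM mesothelial-type, 61.5 to 511 CPM adventitial-type) and Dsp (37.1 to 462 CPM mesothelial-type, 12.5 to 315 CPM adventitial-type) overlapped in the same way. The ductal markers were present on both sides: their sum was 568 to 3348 CPM in the mesothelial-type libraries and 412 to 3288 CPM in the adventitial-type libraries. Of the 14, 1 (Tspan8, 7.14%) was separated higher, against 11.3% of all fitted genes. The part of the ductal markers in the epithelial values was not tested.

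The adventitial list was the mirror image of the mesothelial list, with 18 of 24 genes separated lower in the mesothelial-type libraries, 0 higher and a median log2 difference of -2.30. Pi16 (ENSMUSG00000024011.16, chromosome 17, 29317680 to 29330593), a marker of fibroblasts around vessels in many organs, stood at 66.1, 110.3, 41.7 and 47.6 CPM in mesothelial-type libraries, against 689 to 2318 CPM (median 1075) in adventitial-type libraries (log2 difference -4.54 ± 0.55). Gsn (ENSMUSG00000026879.14, chromosome 2, 35256380 to 35307892), which encodes the actin-severing protein gelsolin, stood at 1846, 2067, 948 and 1093 CPM in mesothelial-type libraries, against 13518 to 32471 CPM (median 17510.2) in adventitial-type libraries (log2 difference -4.07 ± 0.47). Neither gene's ranges overlapped. The collagen-binding protein Dpt (179.7 to 334 CPM mesothelial-type, 1773 to 2796 CPM adventitial-type), the endosialin gene Cd248 (157 to 323 CPM mesothelial-type, 893 to 3052 CPM adventitial-type), the ferritin receptor Scara5 (90.5 to 209.7 CPM mesothelial-type, 717 to 1215 CPM adventitial-type) and the procollagen processing enhancer Pcolce2 (11.5 to 31.5 CPM mesothelial-type, 226 to 529 CPM adventitial-type) were lower too.

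Some adventitial markers did not separate the libraries. Dpp4, the surface peptidase CD26, stood at 367, 297, 298 and 322 CPM in mesothelial-type libraries, against 207 to 406 CPM (median 329.8) in adventitial-type libraries (log2 difference -0.23 ± 0.24), and the ranges overlapped. Sema3c overlapped too (510.5 to 569 CPM mesothelial-type, 485 to 973 CPM adventitial-type). Timp2 had ranges apart but just under a 2-fold difference (1899.6 to 2461 CPM mesothelial-type, 3132 to 4156 CPM adventitial-type; log2 difference -0.99 ± 0.19). Igfbp6 had the opposite sign, at 2155, 1987, 1157 and 1820.0 CPM in mesothelial-type libraries, against 407 to 1661 CPM (median 630.2) in adventitial-type libraries (log2 difference 0.85 ± 0.43, ranges overlapping). Of 8 adventitial markers, 6 (Pi16, Gsn, Cd248, Clec3b, Mfap5 and Ly6c1) were therefore separated and Dpp4 and Sema3c were not. Genes separated lower made up 75% of the adventitial list and 80% of the general fibroblast list. The comparison with mesothelial-type libraries thus cannot tell adventitial from other fibroblasts.

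Genes of fibroblasts at large were lower in the mesothelial-type libraries but far from absent, with 12 of 15 separated lower. The platelet-derived growth factor receptor Pdgfra stood at 281, 319, 123 and 185 CPM in mesothelial-type libraries, against 966 to 1701 CPM (median 1231) in adventitial-type libraries (log2 difference -2.76 ± 0.34). The mesothelial-type values were thus several-fold lower, and the ranges did not overlap. Pdgfrb (51.6 to 105 CPM mesothelial-type, 215 to 444 CPM adventitial-type), Thy1 (50.8 to 109.7 CPM mesothelial-type, 214 to 407 CPM adventitial-type) and Lum (101 to 249 CPM mesothelial-type, 551 to 939 CPM adventitial-type) were separated as well. Decorin (Dcn) stood at 6598, 5600.5, 3047 and 4881 CPM in mesothelial-type libraries, against 4496 to 6377 CPM (median 5100.5) in adventitial-type libraries, and vimentin (Vim) at 765 to 1546 CPM in mesothelial-type libraries, against 1057 to 1910.5 CPM in adventitial-type libraries; neither was separated.

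**Figure D2:**
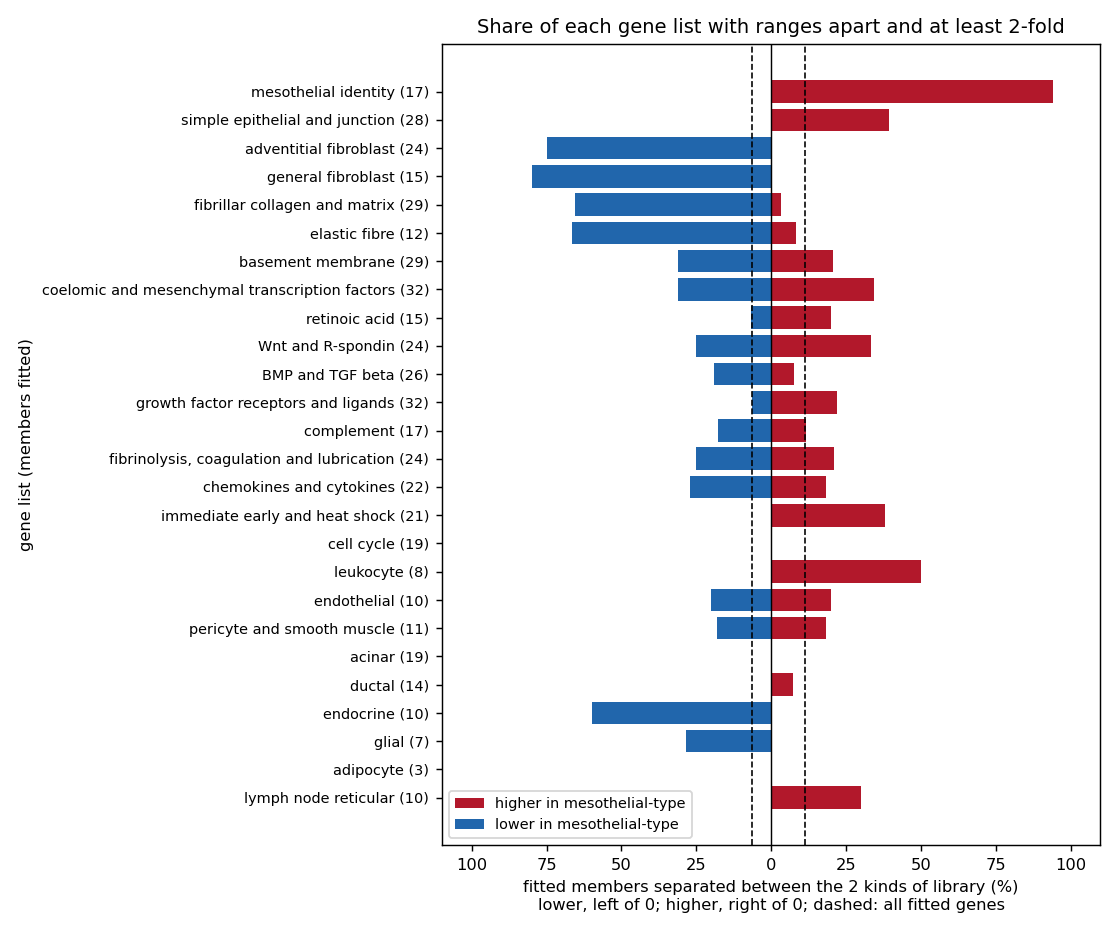
Share of the fitted members of 26 gene lists that were separated (ranges apart and at least 2-fold), with genes higher in the mesothelial-type libraries to the right of 0 and genes lower to the left; dashed lines mark all fitted genes (11.3% and 6.47%). The mesothelial list stands at 94.1% higher, the adventitial list at 75% lower and the general fibroblast list at 80% lower, while cell cycle and acinar lists have no separated member.

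The interstitial matrix was lower in the mesothelial-type libraries for most genes. Of 29 fibrillar collagen and matrix genes, 19 (65.5%) were separated lower and 1 (3.45%) higher (median log2 difference -1.25). Of 12 elastic fibre genes, 8 (66.7%) were lower and 1 (8.33%) higher (median -1.42). Among all fitted genes 6.47% were lower and 11.3% higher. Collagen III (Col3a1) stood at 10439.6, 10128, 4811 and 8132 CPM in mesothelial-type libraries, against 10988 to 17882 CPM (median 15195) in adventitial-type libraries (log2 difference -1.03 ± 0.26). Fibronectin (Fn1) stood at 1791, 2107, 752 and 1782 CPM in mesothelial-type libraries, against 4028 to 9939 CPM (median 6922) in adventitial-type libraries (log2 difference -2.29 ± 0.38). Both were separated, with a larger gap for Fn1. The collagen VI chains Col6a1, Col6a2 and Col6a3 were lower by similar amounts, with log2 differences of -1.97 ± 0.29, -2.09 ± 0.31 and -2.0 ± 0.25, and the minor collagen V chain Col5a3 by more (-3.0 ± 0.31). Col1a1 (2755 to 5480.4 CPM mesothelial-type, 5233 to 8344 CPM adventitial-type; log2 difference -0.87 ± 0.24) overlapped slightly, and Lox, which crosslinks collagen, overlapped fully (132 to 245 CPM mesothelial-type, 113 to 310.2 CPM adventitial-type). For each of the 29 genes the lowest mesothelial-type value was in islet gp38 high TG- replicate 1.

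Among elastic fibre genes, fibrillin 1 (Fbn1) stood at 1207, 1878, 645 and 990.0 CPM in mesothelial-type libraries, against 6978 to 16196 CPM (median 9508) in adventitial-type libraries (log2 difference -3.37 ± 0.39). Elastin (Eln, -2.64 ± 0.28), the microfibril protein Mfap2 (-3.16 ± 0.36) and the latent TGF beta binding protein Ltbp1 (-2.16 ± 0.27) went the same way. Both lists had a member that went against them. Fibromodulin (Fmod), a small proteoglycan that binds collagen fibrils, stood at 702, 632, 422 and 677 CPM in mesothelial-type libraries, against 32.7 to 91.9 CPM (median 48.4) in adventitial-type libraries (log2 difference 3.26 ± 0.26). Ltbp2, which binds fibrillin microfibrils, stood at 25.2, 55.2, 36.7 and 67.7 CPM in mesothelial-type libraries, against 6.7 to 12.7 CPM (median 9.39) in adventitial-type libraries (log2 difference 2.06 ± 0.23). In both cases all 4 mesothelial-type libraries were higher.

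Basement membrane genes differed by chain. Of 29 genes, 6 (20.7%) were separated higher and 9 (31%) lower, against 11.3% and 6.47% of all fitted genes. The median log2 difference of the 29 genes was -0.06. Their summed level was lower, at 9347 to 9612 CPM in the mesothelial-type libraries, against 19867 to 27698 CPM in the adventitial-type libraries. The common collagen IV chains Col4a1 (375 to 719 CPM mesothelial-type, 2318 to 3664 CPM adventitial-type; -2.72 ± 0.26) and Col4a2 (229 to 436 CPM mesothelial-type, 1248 to 1954 CPM adventitial-type; -2.62 ± 0.26) were lower in the mesothelial-type libraries. The Col4a6 chain was higher, at 273, 204, 156 and 242 CPM in mesothelial-type libraries, against 14.5 to 40.4 CPM (median 27) in adventitial-type libraries (log2 difference 2.80 ± 0.23), and Col4a5 did not separate (-0.06 ± 0.15). Among laminins, Lama2 (-2.55 ± 0.30), Lama4 (-1.15 ± 0.20), Lamb1 (-1.81 ± 0.27) and Lamc1 (-2.33 ± 0.24) were lower on the log2 scale, and the epithelial chain Lama3 was higher (2.61 ± 0.46). Nidogen 1 (Nid1), which bridges laminin and collagen IV, was lower at 635, 792, 325 and 505 CPM in mesothelial-type libraries, against 2713 to 5743 CPM (median 3731) in adventitial-type libraries. Its relative Nid2 was not separated and had the opposite sign (349 to 744 CPM mesothelial-type, 188 to 365 CPM adventitial-type; 0.82 ± 0.22). The laminin receptor chains Itga3 (231 to 423 CPM mesothelial-type, 19 to 153 CPM adventitial-type) and Itga6 (105 to 131 CPM mesothelial-type, 2.57 to 47.6 CPM adventitial-type), the Fraser complex protein Fras1 (160.2 to 316 CPM mesothelial-type, 18.1 to 118 CPM adventitial-type) and the integrin ligand nephronectin (Npnt, 24.3 to 35.7 CPM mesothelial-type, 0.335 to 1.85 CPM adventitial-type) were higher. Itga3, Itga6, Fras1 and Lama3 are genes of epithelia in general, and all 4 lay highest of the mesothelial-type libraries in islet gp38 high TG- replicate 1.

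Transcription factors were separated in both directions. Of 36 listed coelomic and mesenchymal factors 32 were fitted, with 11 (34.4%) separated higher and 10 (31.25%) lower. Among all fitted genes 11.3% were higher and 6.47% lower. The higher factors included all 3 GATA factors of the visceral lining. Gata5 stood at 69.4, 85.5, 40.0 and 61.5 CPM in mesothelial-type libraries, against 0.598 to 1.34 CPM (median 1.05) in adventitial-type libraries (log2 difference 5.82 ± 0.26). Gata4 (21.7 to 27 CPM mesothelial-type, 0.494 to 2.45 CPM adventitial-type) and Gata6 (193 to 259 CPM mesothelial-type, 39.2 to 119.6 CPM adventitial-type) were higher as well, Gata6 by less (1.26 ± 0.20). Tbx18 (3.68 ± 0.20), Isl1 (1.93 ± 0.19), Lhx9 (6.05 ± 0.56), Sox6 (2.18 ± 0.40), Osr1 (1.55 ± 0.28) and the stomach mesenchyme factor Barx1 (1.47 ± 0.33) were the others, beside Wt1 and Bnc1. Some of these, such as Wt1, Gata4 and Tbx18, are factors of the septum transversum, epicardium or coelomic epithelium in mouse development. Others, such as Sox6, Barx1, Isl1 and Bnc1, have other main sites.

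The lower factors were those of fibroblasts. Tcf21, a factor of visceral fibroblasts, stood at 9.87, 15.3, 5.55 and 5.68 CPM in mesothelial-type libraries, against 61.6 to 119.6 CPM (median 87.6) in adventitial-type libraries (log2 difference -3.58 ± 0.40). Ebf2 stood at 15.2, 17.4, 8.42 and 8.05 CPM in mesothelial-type libraries, against 115 to 229 CPM (median 159.8) in adventitial-type libraries (log2 difference -3.96 ± 0.34), and the log2 difference of Ebf1 was -3.07 ± 0.27. The ranges of all 3 were far apart. Prrx1, Twist1, Twist2, Snai1, Zeb1 and Zeb2, which include the best known drivers of the mesenchymal state, were separated lower, with log2 differences of -1.99 ± 0.26, -1.71 ± 0.45, -1.32 ± 0.32, -1.80 ± 0.31, -1.52 ± 0.22 and -1.76 ± 0.24. Nkx2-3, a factor of gut and spleen mesenchyme, was lower too (-1.94 ± 0.28), and the ranges of Snai2 overlapped (5.12 to 7.32 CPM mesothelial-type, 3.35 to 9.57 CPM adventitial-type).

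**Figure D3:**
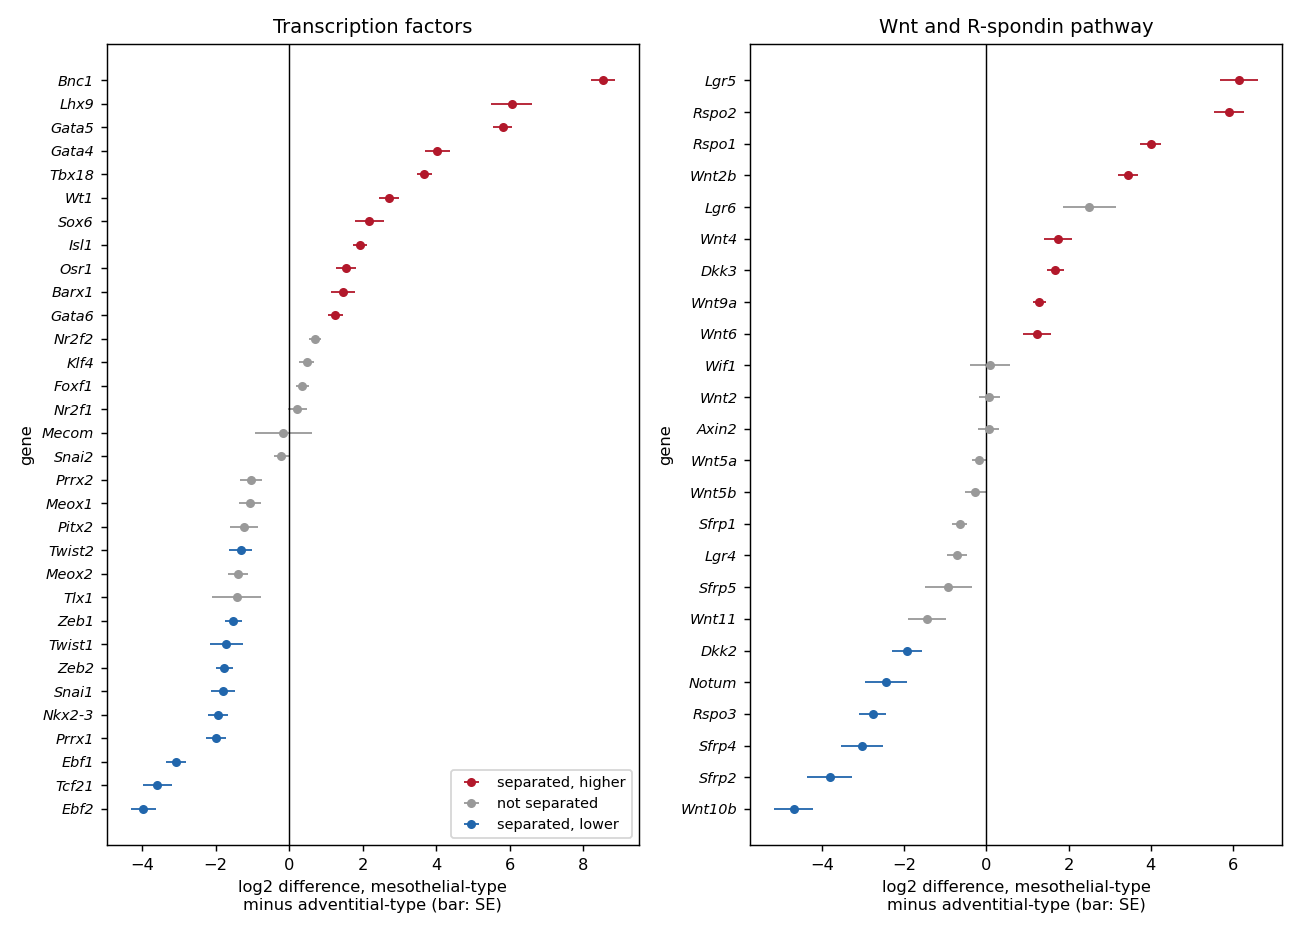
Log2 difference (mesothelial-type minus adventitial-type, bar: SE) of every fitted member of the transcription factor list (left) and the Wnt and R-spondin list (right), coloured by whether the ranges were apart and at least 2-fold. Bnc1, Lhx9, Gata5 and Gata4 lie at the top and Ebf2, Tcf21 and Ebf1 at the bottom of the factors, and Lgr5, Rspo2, Rspo1 and Wnt2b at the top and Wnt10b and Sfrp2 at the bottom of the Wnt list.

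Because the GATA and EBF factors differed in opposite directions, the 250 bases before the transcription start were searched on both strands for the core motif AGATAA of the GATA factors and the core motif CCCNNGGG of the EBF factors. Promoters were RefSeq sequences of GRCm38.p6 for the 9025 fitted genes with a single listed promoter. The GATA core was found in 7.97% of 853 promoters of genes separated higher, in 4.9% of 571 promoters of genes separated lower and in 5.84% of all 9025. The EBF core was found in 17% of those higher, 19.4% of those lower and 15.9% of all. No test was made of these shares. Shown for the genes that carry each profile are 3 mesothelial promoters (Upk3b, plus strand, chr5:136038246-136038495; Muc16, minus strand, chr9:18674604-18674853; Bnc1, minus strand, chr7:81992300-81992549) and 3 fibroblast promoters (Tcf21, minus strand, chr10:22820144-22820393; Pi16, plus strand, chr17:29318632-29318881; Pcolce2, plus strand, chr9:95637378-95637627), each 5′ to 3′ with matches in capitals.
Upk3b: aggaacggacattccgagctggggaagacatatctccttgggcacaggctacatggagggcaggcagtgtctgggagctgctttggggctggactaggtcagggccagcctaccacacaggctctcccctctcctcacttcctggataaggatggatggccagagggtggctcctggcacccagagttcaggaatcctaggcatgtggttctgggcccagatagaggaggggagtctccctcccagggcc
Muc16: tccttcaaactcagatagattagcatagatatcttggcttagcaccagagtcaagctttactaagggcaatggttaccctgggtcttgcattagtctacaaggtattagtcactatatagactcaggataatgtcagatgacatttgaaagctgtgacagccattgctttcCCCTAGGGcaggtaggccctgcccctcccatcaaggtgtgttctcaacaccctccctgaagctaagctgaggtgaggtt
Bnc1: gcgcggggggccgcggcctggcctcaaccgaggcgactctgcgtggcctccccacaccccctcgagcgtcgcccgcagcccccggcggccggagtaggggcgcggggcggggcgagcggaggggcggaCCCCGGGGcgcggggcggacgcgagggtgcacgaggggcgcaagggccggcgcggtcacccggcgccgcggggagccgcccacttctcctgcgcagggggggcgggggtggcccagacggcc
Tcf21: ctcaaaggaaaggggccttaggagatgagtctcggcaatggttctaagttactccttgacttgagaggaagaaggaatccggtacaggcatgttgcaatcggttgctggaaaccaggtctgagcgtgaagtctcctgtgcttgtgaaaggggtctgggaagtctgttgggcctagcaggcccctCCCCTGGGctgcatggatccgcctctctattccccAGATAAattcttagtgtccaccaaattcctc
Pi16: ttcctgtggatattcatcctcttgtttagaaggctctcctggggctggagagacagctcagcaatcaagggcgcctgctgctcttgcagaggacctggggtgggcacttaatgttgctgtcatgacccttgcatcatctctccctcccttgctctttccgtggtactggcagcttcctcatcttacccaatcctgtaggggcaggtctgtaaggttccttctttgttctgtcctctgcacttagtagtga
Pcolce2: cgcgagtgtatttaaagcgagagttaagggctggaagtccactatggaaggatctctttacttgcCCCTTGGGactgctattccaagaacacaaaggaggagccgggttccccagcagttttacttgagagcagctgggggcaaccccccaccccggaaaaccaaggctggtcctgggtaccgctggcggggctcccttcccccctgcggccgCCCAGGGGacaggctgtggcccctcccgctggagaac
Muc16 and Bnc1 each held 1 EBF core, Pcolce2 held 2, and Tcf21 held 1 EBF and 1 GATA core. Neither core was in the window of Upk3b or Pi16. A match is a description of the letters only.

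Secreted signals separated the libraries by individual ligand. On the list of 25 Wnt and R-spondin genes, 24 were fitted. Of these, 8 (33.3%) were separated higher and 6 (25%) lower, against 11.3% and 6.47% of all fitted genes. Wnt2b, a canonical Wnt ligand, stood at 959.5, 786, 569 and 924 CPM in mesothelial-type libraries, against 47.8 to 91.5 CPM (median 60.1) in adventitial-type libraries (log2 difference 3.45 ± 0.24). Rspo1, an R-spondin that prolongs Wnt signalling, stood at 402, 344, 231 and 331 CPM in mesothelial-type libraries, against 10.3 to 21.6 CPM (median 17.9) in adventitial-type libraries (log2 difference 4.0 ± 0.26). All 4 libraries were above the other 8 for both genes. Rspo2 (5.84 to 14 CPM mesothelial-type, 0 to 0.217 CPM adventitial-type) and the R-spondin receptor Lgr5 (12.6 to 32.6 CPM mesothelial-type, 0 to 0.48 CPM adventitial-type) were near 0 on the adventitial side. Wnt4 (1.74 ± 0.34), Wnt9a (1.29 ± 0.16), Wnt6 (1.23 ± 0.35) and Dkk3 (1.68 ± 0.20) completed the higher group.

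The adventitial-type libraries held another set. Rspo3 stood at 6.48, 9.14, 2.82 and 4.32 CPM in the mesothelial-type libraries, against 22 to 49.1 CPM (median 31.7) in the adventitial-type libraries (log2 difference -2.76 ± 0.33). Wnt10b stood at 2.04, 3.24, 1.67 and 1.16 CPM in mesothelial-type libraries, against 21.7 to 70.5 CPM (median 45.3) in adventitial-type libraries (log2 difference -4.69 ± 0.47). The Wnt inhibitors Sfrp2 (4.4 to 13.2 CPM mesothelial-type, 40.8 to 206 CPM adventitial-type), Sfrp4 (15.5 to 57.8 CPM mesothelial-type, 109 to 304 CPM adventitial-type), Dkk2 (2.11 to 7.67 CPM mesothelial-type, 8.91 to 21.6 CPM adventitial-type) and Notum (0.105 to 0.818 CPM mesothelial-type, 0.924 to 2.3 CPM adventitial-type) were lower in the mesothelial-type libraries too. Axin2, a general target of canonical Wnt signalling, was not separated, at 61 to 120.4 CPM in mesothelial-type libraries, against 50.9 to 99.5 CPM in adventitial-type libraries (log2 difference 0.06 ± 0.26).

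Among 34 growth factor genes, 32 were fitted, 7 (21.9%) were separated higher and 2 (6.25%) lower. Over all fitted genes these shares were 11.3% and 6.47%, so the lower share was near that of all genes. Fgf1 stood at 1888, 2103, 1476 and 2193 CPM in mesothelial-type libraries, against 47.7 to 79.6 CPM (median 59.8) in adventitial-type libraries (log2 difference 4.73 ± 0.19), and Fgf9 at 76.9, 54.4, 58.4 and 61.6 CPM in mesothelial-type libraries, against 0.781 to 6.47 CPM (median 4.14) in adventitial-type libraries (log2 difference 3.81 ± 0.32). Fgf7 (6.16 to 10.7 CPM mesothelial-type, 14.1 to 35.8 CPM adventitial-type; -1.89 ± 0.22) and Fgf10 (4.21 to 11 CPM mesothelial-type, 30.7 to 72.8 CPM adventitial-type; -2.85 ± 0.33), fibroblast ligands of the epithelial FGF receptor, were the 2 lower ones. So FGF1 and FGF9 transcripts marked one kind of library and FGF7 and FGF10 transcripts the other. Igf1 stood at 896, 1132, 899 and 830.2 CPM in mesothelial-type libraries, against 115 to 442 CPM (median 315) in adventitial-type libraries (log2 difference 1.48 ± 0.25), and Igfbp5, a binding protein for IGFs, at 14286, 15926, 10658 and 17762 CPM in mesothelial-type libraries, against 1642 to 3307 CPM (median 2289.7) in adventitial-type libraries (log2 difference 2.40 ± 0.22). Igfbp5 alone took over 1% of the reads in genes in each mesothelial-type library. The stem cell factor gene Kitl (82.5 to 131 CPM mesothelial-type, 14.7 to 43.4 CPM adventitial-type), the EGF receptor ligand Tgfa (83.6 to 97.3 CPM mesothelial-type, 2.9 to 50.5 CPM adventitial-type) and Igfbp2 (3.35 to 7.88 CPM mesothelial-type, 0.0577 to 0.335 CPM adventitial-type) were separated higher.

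Of 26 BMP and TGF beta genes, 2 (7.69%) were separated higher and 5 (19.2%) lower, against 11.3% and 6.47% of all fitted genes. The activin subunit gene Inhba (12.4 to 19.2 CPM mesothelial-type, 1.23 to 8.18 CPM adventitial-type) was among the higher genes. Follistatin (Fst, 12.3 to 31.3 CPM mesothelial-type, 64.4 to 122 CPM adventitial-type), the follistatin-like Fstl1 (337 to 680.4 CPM mesothelial-type, 1454 to 2523 CPM adventitial-type), Gdf10 (43.3 to 121 CPM mesothelial-type, 276 to 426 CPM adventitial-type), the procollagen protease gene Bmp1 (203 to 309.9 CPM mesothelial-type, 376 to 662 CPM adventitial-type) and endoglin (Eng, 24.4 to 73.4 CPM mesothelial-type, 162 to 359.6 CPM adventitial-type) were lower.

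**Figure D4:**
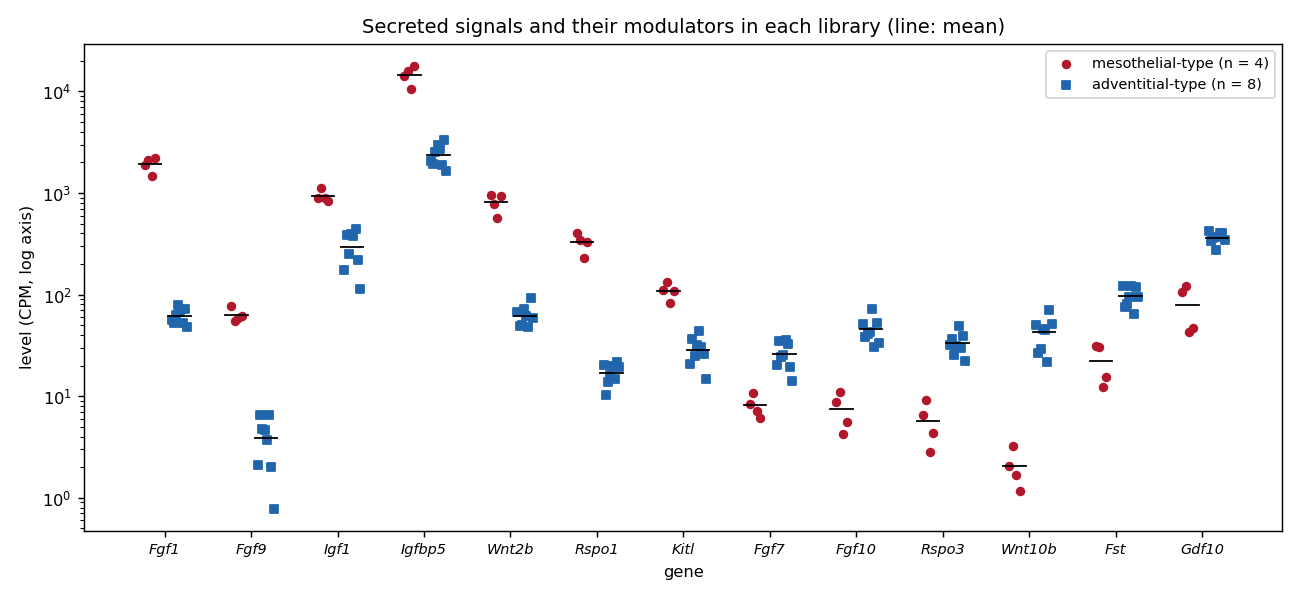
Level in CPM (log axis) of 13 secreted signals and modulators, with 1 point per library, mesothelial-type libraries (n = 4) left and adventitial-type libraries (n = 8) right of each tick, and a line at the mean. The first 7 genes, Fgf1 to Kitl, are higher and the last 6, Fgf7 to Gdf10, lower in all 4 mesothelial-type libraries than in any adventitial-type library.

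Retinoic acid synthesis differed in its enzymes. Of 17 listed genes 15 were fitted, 3 (20%) were separated higher and 1 (6.67%) lower, against 11.3% and 6.47% of all fitted genes. Aldh1a2, the retinaldehyde dehydrogenase of mesoderm, stood at 373, 395, 220.2 and 393 CPM in mesothelial-type libraries, against 61.9 to 114 CPM (median 90.0) in adventitial-type libraries (log2 difference 1.73 ± 0.26). Aldh1a1 was higher as well (153 to 267 CPM mesothelial-type, 78.8 to 128 CPM adventitial-type; 1.04 ± 0.19). The third enzyme of the family, Aldh1a3, was lower, at 2.69, 3.66, 0.67 and 1.21 CPM in mesothelial-type libraries, against 22.7 to 63.9 CPM (median 49) in adventitial-type libraries (log2 difference -4.77 ± 0.55). The retinol transporter Stra6 was at 11.1 to 29.1 CPM in mesothelial-type libraries, against 0.173 to 0.882 CPM in adventitial-type libraries (4.92 ± 0.39). The receptors Rara, Rarb, Rarg and Rxra did not separate.

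Surface and fluid-handling genes gave some of the clearest single differences. Of 24 genes of fibrinolysis, coagulation and lubrication, 5 (20.8%) were separated higher and 6 (25%) lower, against 11.3% and 6.47% of all fitted genes. Slpi, a secreted leukocyte protease inhibitor, stood at 389, 361, 232 and 360.2 CPM in mesothelial-type libraries, against 0.781 to 2.27 CPM (median 1.15) in adventitial-type libraries (log2 difference 7.71 ± 0.30). The water channel Aqp1 stood at 240.4, 212, 185 and 255 CPM in mesothelial-type libraries, against 3.32 to 22.4 CPM (median 5.86) in adventitial-type libraries (log2 difference 4.46 ± 0.49). Lubricin (Prg4, 3.35 to 26.9 CPM mesothelial-type, 0.686 to 2.09 CPM adventitial-type) and the protein C receptor Procr (57.2 to 102 CPM mesothelial-type, 19.6 to 48.3 CPM adventitial-type) were also higher. The urokinase system split: the receptor Plaur was higher (62.4 to 90.1 CPM mesothelial-type, 7.81 to 19.4 CPM adventitial-type; 2.28 ± 0.19) and the protease Plau lower (17.9 to 46.9 CPM mesothelial-type, 158 to 484 CPM adventitial-type; -3.44 ± 0.47). Tissue plasminogen activator (Plat, -0.68 ± 0.37) overlapped. The hyaluronan synthase Has2 was lower (4.83 to 13.8 CPM mesothelial-type, 24.8 to 68 CPM adventitial-type) and Has1 overlapped (54.4 to 332 CPM mesothelial-type, 98.3 to 283 CPM adventitial-type).

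Complement genes were read in both kinds of library, with 2 of 17 fitted genes (11.8%) separated higher and 3 (17.6%) lower. Over all fitted genes these shares were 11.3% and 6.47%. C3 stood at 25780.2, 23289.5, 12102 and 26035 CPM in mesothelial-type libraries, against 5071 to 12988 CPM (median 6904) in adventitial-type libraries (log2 difference 1.15 ± 0.37). It overlapped through a single library, islet gp38 high TG- replicate 1, and so was not called separated. C2 (142 to 309.6 CPM mesothelial-type, 21.4 to 43 CPM adventitial-type; 2.65 ± 0.28) and factor B (Cfb, 5.69 to 11 CPM mesothelial-type, 1.67 to 2.9 CPM adventitial-type; 1.81 ± 0.25) were higher. C7 (35 to 47.2 CPM mesothelial-type, 75.8 to 350.2 CPM adventitial-type; -2.49 ± 0.35) and the decay accelerating gene Cd55 (32.7 to 68 CPM mesothelial-type, 134 to 251 CPM adventitial-type; -2.04 ± 0.27) were lower, with the C1q-related C1qtnf1.

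Of 26 chemokine and cytokine genes 22 were fitted. Among the 22, 4 (18.2%) were separated higher and 6 (27.3%) lower, against 11.3% and 6.47% of all fitted genes. Cxcl13, the B cell attractant, stood at 57.4, 63, 15.4 and 85.6 CPM in mesothelial-type libraries, against 3.32 to 11.2 CPM (median 8.86) in adventitial-type libraries (log2 difference 2.54 ± 0.40). The islet gp38 high TG- replicate 1 library was nearest to the adventitial-type range. Cxcl16 (78.4 to 141 CPM mesothelial-type, 22.6 to 70.4 CPM adventitial-type), Cxcl10 (16.2 to 53 CPM mesothelial-type, 5.92 to 12.6 CPM adventitial-type) and Il18 (17.9 to 32.8 CPM mesothelial-type, 3 to 6.68 CPM adventitial-type) were also higher. Ccl11, the eosinophil attractant eotaxin, stood at 19.2, 49.7, 15.5 and 16.4 CPM in mesothelial-type libraries, against 156 to 266 CPM (median 211) in adventitial-type libraries (log2 difference -3.31 ± 0.35). Cxcl14 (15.9 to 54.9 CPM mesothelial-type, 132 to 361 CPM adventitial-type), Cxcl12 (96.4 to 155 CPM mesothelial-type, 174 to 253 CPM adventitial-type), Il33 (59.9 to 139.6 CPM mesothelial-type, 170.0 to 302 CPM adventitial-type), Lif (5.55 to 14.5 CPM mesothelial-type, 15.5 to 26.1 CPM adventitial-type) and Tslp (0.368 to 0.759 CPM mesothelial-type, 1.51 to 3.65 CPM adventitial-type) were lower. Pdpn (ENSMUSG00000028583.14, chromosome 4, 143267431 to 143299564), which encodes the gp38 antigen named in the labels, stood at 187, 218, 143 and 182 CPM in mesothelial-type libraries, against 51.1 to 97.3 CPM (median 66.2) in adventitial-type libraries (log2 difference 1.05 ± 0.27), so both kinds of library carried it and the mesothelial-type libraries had more.

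Of 21 stress response genes, 8 (38.1%) were separated higher in the mesothelial-type libraries and 0 lower, against 11.3% and 6.47% of all fitted genes. Atf3 (1222 to 1773 CPM mesothelial-type, 370.3 to 924 CPM adventitial-type), Fosb (3227 to 5229 CPM mesothelial-type, 708 to 2928 CPM adventitial-type), Egr3 (37.4 to 47.7 CPM mesothelial-type, 9.6 to 26.1 CPM adventitial-type) and Fosl1 (4.85 to 27.4 CPM mesothelial-type, 0.892 to 3.38 CPM adventitial-type) were among the 8, while Fos (2856 to 3836 CPM mesothelial-type, 1540.2 to 3152 CPM adventitial-type), Jun (2093 to 2833 CPM mesothelial-type, 825 to 2074 CPM adventitial-type) and Egr1 (2596 to 3799.8 CPM mesothelial-type, 2307 to 3450.5 CPM adventitial-type) were not. The heat shock genes Hspa1a, Hspa1b, Hsph1 and Dnajb1 were all separated. Hspa1a stood at 266, 629.9, 249 and 319 CPM in mesothelial-type libraries, against 44.2 to 103 CPM (median 77.2) in adventitial-type libraries, and its near-identical copy Hspa1b shares reads with it, so their split is uncertain. All 4 heat shock genes were highest in islet CD45 TG+ replicate 1. No cell cycle gene of 19 separated; Mki67 was at 35.4 to 42.5 CPM in mesothelial-type libraries, against 4.8 to 51.1 CPM in adventitial-type libraries.

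Markers of other cell types were read in all 12 libraries. Of 20 leukocyte genes, 17 were under 3 CPM in every one of the 12 libraries, Ptprc, Laptm5, Cd52 and Lyz2 among them. The 3 exceptions were all separated higher in the mesothelial-type libraries. Csf1r, the receptor for CSF1 known from macrophages, stood at 102, 103, 92.3 and 105 CPM in mesothelial-type libraries, against 4.13 to 28.8 CPM (median 15.9) in adventitial-type libraries (log2 difference 2.41 ± 0.37). Cd74, the invariant chain of MHC class II, stood at 149.5, 146, 67.2 and 197 CPM in mesothelial-type libraries, against 7.88 to 17.2 CPM (median 11.8) in adventitial-type libraries (log2 difference 3.31 ± 0.29). Cd3e, a T cell receptor component, stood at 4.2, 7.32, 3.49 and 9.89 CPM in mesothelial-type libraries, against 0.112 to 2.12 CPM (median 1.09) in adventitial-type libraries, while its partner Cd3d had no read in the mesothelial-type libraries. Cd79a was separated at low values (1.21 to 1.87 CPM mesothelial-type, 0.112 to 0.865 CPM adventitial-type). The summed leukocyte list was 168 to 315 CPM in the mesothelial-type libraries and 23.3 to 51.3 CPM in the adventitial-type libraries, most of it Csf1r and Cd74.

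Of 10 fitted endothelial genes, 2 (20%) were separated higher (Kdr and Lyve1) and 2 (20%) lower (Tek and Plvap). Among all fitted genes 11.3% were higher and 6.47% lower. Cdh5 (0.53 to 2.74 CPM mesothelial-type, 0.137 to 1.63 CPM adventitial-type), Pecam1 (1.72 to 2.63 CPM mesothelial-type, 0.378 to 2.07 CPM adventitial-type) and Emcn (0 to 0.0957 CPM mesothelial-type, 0 to 0.288 CPM adventitial-type) were near 0 in both. Kdr, the VEGF receptor 2 best known from endothelium, stood at 192, 282, 165 and 237 CPM in mesothelial-type libraries, against 3.91 to 13.6 CPM (median 5.6) in adventitial-type libraries (log2 difference 4.88 ± 0.29). Tek, the angiopoietin receptor, ran the other way, at 8.47, 15.1, 2.68 and 3.89 CPM in mesothelial-type libraries, against 137 to 316 CPM (median 247) in adventitial-type libraries (log2 difference -5.21 ± 0.57). The ranges of both genes were far apart, in opposite directions, in libraries with next to no Cdh5. Of the smooth muscle and pericyte list, Myh11 (67.6 to 195 CPM mesothelial-type, 1.79 to 9.4 CPM adventitial-type) and Acta2 (44.3 to 93.6 CPM mesothelial-type, 9.15 to 22.6 CPM adventitial-type) were separated higher and Notch3 (18.3 to 23.6 CPM mesothelial-type, 62.2 to 138 CPM adventitial-type) and Cspg4 (15.7 to 24.4 CPM mesothelial-type, 35.3 to 71.4 CPM adventitial-type) lower.

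Of 7 fitted glial genes, Sox10 (-4.71 ± 0.96) and S100b (-2.70 ± 0.30) were separated lower (28.6%, against 6.47% of all fitted genes). None of 3 adipocyte genes was separated. Of 10 fitted lymph node reticular genes, Bst1 (5.69 ± 0.55), Enpp2 (1.73 ± 0.30) and Cxcl13 were separated higher (30%, against 11.3% of all fitted genes).

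Pancreatic RNA differed in kind. The 20 acinar genes summed to 144 to 825 CPM in the mesothelial-type libraries, and in the adventitial-type libraries to 144 to 535 CPM in 4 and 7917 to 15665 CPM in the other 4 (islet CD45 TG+ replicates 2 and 4, islet gp38 high TG+ replicate 1 and islet gp38 low TG+ replicate 2). None of the 19 fitted acinar genes was separated, in spite of a median log2 difference of -4.34. Of 10 fitted endocrine genes, 6 (60%) were separated, all lower in the mesothelial-type libraries, against 6.47% of all fitted genes. The 12-gene endocrine sum was 2.47 to 3.97 CPM in mesothelial-type libraries, against 36.8 to 704 CPM in adventitial-type libraries. Glucagon (Gcg) stood at 0.117, 0.492, 0.383 and 0.368 CPM in mesothelial-type libraries, against 2.34 to 225 CPM (median 84.2) in adventitial-type libraries (log2 difference -8.25 ± 1.5). Pancreatic polypeptide (Ppy) stood at 0, 0.281, 0 and 0 CPM in mesothelial-type libraries, against 8.71 to 177 CPM (median 23.3) in adventitial-type libraries. Peptide YY (Pyy) had no read in any mesothelial-type library, against 2.5 to 46.7 CPM (median 6.53) in adventitial-type libraries, which is at least 405-fold lower than the adventitial-type mean of 17.1 CPM, counting 3 reads over the 4 mesothelial-type libraries together. In the 4 adventitial-type libraries with little acinar RNA, Gcg was still at 2.34 to 15.0 CPM, above all mesothelial-type values. The insulin genes Ins1 (0.0526 to 0.287 CPM mesothelial-type, 0.119 to 10.1 CPM adventitial-type) and Ins2 (0 to 0.492 CPM mesothelial-type, 0.119 to 13.3 CPM adventitial-type) overlapped.

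**Figure D5:**
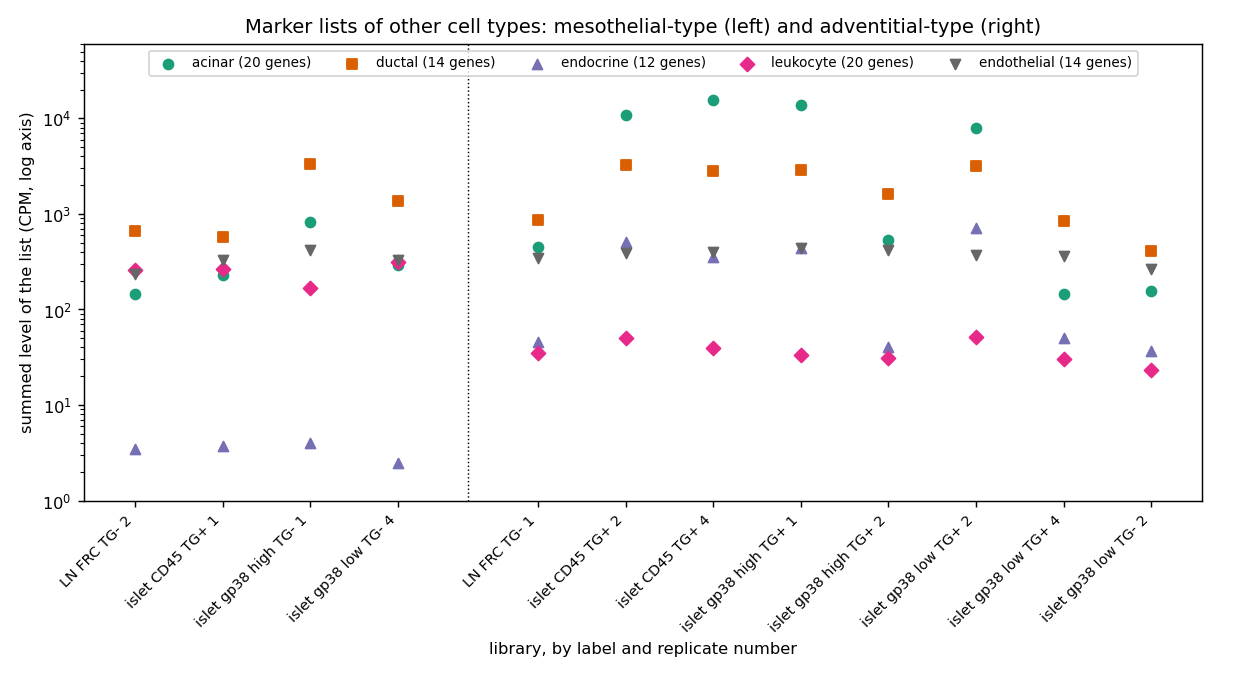
Summed level in CPM (log axis) of 5 marker lists of other cell types in each of the 12 libraries, mesothelial-type libraries left and adventitial-type libraries right of the dotted line. The endocrine sum is 2.47 to 3.97 CPM on the left and 36.8 to 704 CPM on the right, the leukocyte sum is 168 to 315 and 23.3 to 51.3 CPM, and acinar and ductal sums overlap between the sides.

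By size of difference, among separated genes with at least 10 CPM on the higher side, the 10 furthest up were Isx, Muc16, Chst4, Ano5, Krt14, Upk1b, Gm21013, Lrp2, Msln and Lrrn4. Isx, a homeobox gene known from intestine, stood at 22.8, 23.1, 18.2 and 30.2 CPM in mesothelial-type libraries, against 0 to 0.0577 CPM (median 0) in adventitial-type libraries. Lrp2, the endocytic receptor megalin, stood at 756, 749.8, 541 and 865 CPM in mesothelial-type libraries, against 0.343 to 1.9 CPM (median 1.39) in adventitial-type libraries (log2 difference 8.92 ± 0.37). The basal keratin Krt14 stood at 12.1, 30.8, 15.8 and 25.3 CPM in mesothelial-type libraries, against 0 to 0.144 CPM (median 0) in adventitial-type libraries. The 10 furthest down were Pyy, Ppy, Gcg, Sst, Dmrt2, Gm45187, Ackr2, Pcsk2, Mgarp and Tek. Besides islet hormone genes and Tek, these included Ackr2, a decoy receptor that clears inflammatory chemokines, at 1.11, 2.18, 0.574 and 0.53 CPM in mesothelial-type libraries, against 26.3 to 73.7 CPM (median 56.3) in adventitial-type libraries (log2 difference -5.85 ± 0.55).

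Within the adventitial-type libraries the genotype in the labels was tested, since the rule had not used it. The genotype comes from the same labels as the population, which the profiles did not follow. The genotype labels may thus be in doubt too, and the calls compare libraries labelled TG+ with libraries labelled TG-. Of 15535 genes tested across 6 TG+ and 2 TG- libraries, edgeR's quasi-likelihood test called 5472 (35.2%) at an adjusted p under 0.05, 2739 higher and 2733 lower in TG+, with the lowest adjusted p at 0.0131. Of the TG- libraries 1 was labelled as lymph node and 1 as islets, while all 6 TG+ libraries were labelled as islets. The library labelled LN FRC TG- replicate 1 nonetheless held pancreatic RNA, with summed levels of 856 CPM of ductal, 453 CPM of acinar and 45.9 CPM of endocrine genes, above those of islet gp38 low TG- replicate 2 (412, 156 and 36.8 CPM). Library measures differed by genotype label as well. Unmapped reads were 52.3% and 67.7% in the TG- libraries, against 33.6% to 42.9% in the TG+ libraries. Genes with at least 10 reads numbered 13642 and 12699 in TG-, against 13766 to 16067 in TG+. Islet gp38 low TG- replicate 2 had the fewest reads in genes, 8959919. The part of these measures in the calls was not tested. The count rests on few libraries. Without islet gp38 low TG- replicate 2 it was 0, and with all 12 libraries and the profile as a covariate it was also 0. Without any 1 of islet CD45 TG+ replicates 2 and 4, islet gp38 high TG+ replicate 1 and islet gp38 low TG+ replicate 2, it was 3147, 3521, 2923 and 3163, in that order.

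Genes that rose in TG+ were led by Hook1, Dcx, Chmp4c, Pik3c2g, Erbb4, Cdh6, Ankrd1 and Tmem229a. Erbb4, a neuregulin receptor, was at 4.6 to 38.4 CPM in TG+ and at 3.81 and 1.67 CPM in TG- libraries (log2 difference 2.85 ± 0.73, adjusted p = 0.0226 by edgeR). Of 14 ductal genes, 7 rose in TG+ and 0 fell, where 17.6% of all genes tested rose. The ductal sums overlapped, at 836 to 3288 CPM in TG+ and 856 and 412 CPM in TG- libraries. Spp1 was at 369.8 to 1899 CPM in TG+ and at 384.9 and 127.7 CPM in TG-. Genes that fell in TG+ were led by Mir6236, Gm14236, Inmt, Nlrp5-ps, Hist1h1c, Rprl3, Rps14 and Hist1h4c; Rps14 and the histone genes have near-identical copies in the genome, so their counts are uncertain. Inmt, a methyltransferase, was at 58.5 to 97.8 CPM in TG+ and at 237.6 and 242.2 CPM in TG- (log2 difference -1.97 ± 0.23, adjusted p = 0.0131 by edgeR). Of 24 adventitial genes, 9 fell and 0 rose in TG+, where 17.6% of all genes tested fell. Gsn fell, at 13518 to 23037 CPM in TG+ and at 29781 and 32471 CPM in TG- (log2 difference -1.17 ± 0.26, adjusted p = 0.0143 by edgeR). Pi16 (-1.21 ± 0.36, adjusted p = 0.0297) and Pdpn (-0.87 ± 0.23, adjusted p = 0.0219) fell too in edgeR's test. Upk3b fell at its low level, 4.67 to 7.72 CPM in TG+ and 6.85 and 9.82 CPM in TG- (-0.77 ± 0.25, adjusted p = 0.0381 by edgeR). Msln, Wt1, Ptprc and Ccl21a did not pass. The 4 libraries rich in acinar RNA were all labelled TG+, and 0 of 20 acinar genes passed (median log2 difference 4.42). Islet gp38 low TG+ replicate 4 lay closest to LN FRC TG- replicate 1. Its log2 CPM over the fitted genes correlated at 0.992 with that library and at 0.979 with islet gp38 low TG- replicate 2. The correlations with the other TG+ libraries were 0.955 to 0.982, highest with islet gp38 high TG+ replicate 2. The part of ductal or acinar RNA in these calls was not tested.

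The population in the labels (CD45, gp38 high, gp38 low or LN FRC) was tested in the same 8 libraries. No gene of 16325 passed edgeR's joint test (0%; the smallest adjusted p was 0.852, and 158 genes had an unadjusted p under 0.05), and DESeq2 called 1. Without islet gp38 low TG+ replicate 2 the count was 2214, and without a filter on low counts it was 811.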

How the data were processed

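RNA was taken from antibody-stained cells sorted into TRIzol, and libraries were made with the KAPA HyperPrep kit with RiboErase, per the labels' protocols. The authors deposited read counts per gene for each library, made with STAR 2.5.2a after Trim Galore 0.4.3 and bcl2fastq 2.17 on mm10, per the submitters' processing notes. Column 4 (the reverse strand count) was used, and the unassigned categories were left out of library sizes. CPM was computed from these deposited counts. Of 54446 gene IDs, 54409 matched GENCODE M21, which gave symbols and coordinates.

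The 12 libraries were fitted with edgeR 4.0.16 (TMM, filterByExpr, robust quasi-likelihood) in R 4.3.3. Differences in gene levels between library types carry no p-value; 4 library measures were compared by exact permutation tests. Within the adventitial-type libraries, genotype and labelled population were tested by edgeR's quasi-likelihood F test with Benjamini-Hochberg adjustment at 0.05 over all genes. DESeq2 1.42.0, other filters, scalings, covariates and leaving out each library were alternatives. The scripts were tested on simulated data. Floors of 3 reads cover counting error only. Genes named are list members, 8 preset genes and the largest differences; genes chosen after their values were seen are said to be so. The members and gene lists were chosen with earlier results of these data known. Some list members are counted in their list but not reported by name.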

Additional observations from a re-analysis of the deposited data

Results flagged for a closer look

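Single libraries stood apart from the others of their kind for 19 genes, among 416 sets of 4 or 8 values checked with Dixon's test at 95%. The sets share the same 12 libraries and are not independent, so the number of flags cannot be set against chance. In the mesothelial-type libraries, islet gp38 high TG- replicate 1 was far below the other 3 for Upk3b (1461 CPM), Wt1 (253 CPM), Aldh1a2 (220.2 CPM), Cldn15 (175 CPM), Procr (57.2 CPM) and Twist1 (2.54 CPM). This is the library with the most ductal RNA; the part of that RNA was not tested. Islet CD45 TG+ replicate 1 was lowest for Gata6 (193 CPM) and highest for Ccl11 (49.7 CPM).

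In the adventitial-type libraries, islet gp38 low TG- replicate 2 was highest for Aqp1 (22.4 CPM) and Ccl21a (4.69 CPM) and lowest for Col4a5 (122 CPM) and Dkk3 (31.5 CPM). LN FRC TG- replicate 1 was highest for Aldh1a1 (128 CPM) and Laptm5 (2.40 CPM). Kdr was highest in islet gp38 high TG+ replicate 1 (13.6 CPM), Pkhd1l1 in islet gp38 high TG+ replicate 2 (11.9 CPM), Pecam1 (2.07 CPM) and Lyve1 (1.68 CPM) in islet CD45 TG+ replicate 4, and Calb2 in islet gp38 low TG+ replicate 2 (1.44 CPM).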

How the results depend on the processing

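The count of separated genes followed its own rule: 4702 genes had ranges apart and a fitted difference of the same sign at any size (3373 higher in the mesothelial-type libraries) and 1362 at 4-fold or more (829 higher and 533 lower). Under every other filter, scaling, covariate or library left out it lay between 2410 and 3474, against 2837. With genotype as a covariate it was 3094, 2797 of them shared with the 2837, and with the labelled population as a block 2847, with 2804 shared. No log2 difference of a separated named gene changed sign. The count for TG+ against TG- within the adventitial-type libraries ran from 0 to 7855 as single libraries were left out, and was 0 with all 12 libraries and the library type as a covariate; the cause was not tested. The count for labelled population was 1 with DESeq2, 811 with no filter on low counts and 0 to 2214 as single libraries were left out. Deviations of same-numbered libraries had a mean correlation of -0.06 over 10 pairs (-0.58 to 0.49). Pairs with different numbers had 0.02 over 22 pairs (-0.60 to 0.61). With values so wide and so few pairs, the check cannot decide whether the numbers pair the libraries. With a replicate block the counts were 2882 separated genes and 5741 genotype calls. Genes under about 1 CPM rest on few reads, and a floor of 3 reads was 0.144 to 0.211 CPM in the mesothelial-type libraries.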

Other observations

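Several genes outside the lists, chosen after their values were seen, were also far apart between the profiles. Pkhd1l1, a large membrane protein related to fibrocystin, stood at 2609, 1995, 1167 and 1979 CPM in the mesothelial-type libraries (same order as above), against 2.4 to 11.9 CPM (median 3.31) in the adventitial-type libraries. Cav1, the coat protein of caveolae, stood at 1636, 1578, 1097 and 1374 CPM in mesothelial-type libraries, against 20.9 to 46.7 CPM (median 31.4) in adventitial-type libraries (log2 difference 5.26 ± 0.18). Col6a5, a collagen VI chain, was higher at 2541, 1748, 1019 and 1840.1 CPM in mesothelial-type libraries, against 14 to 26.5 CPM (median 18.8) in adventitial-type libraries (6.30 ± 0.25), where Col6a1, Col6a2 and Col6a3 were lower. Trem2, a receptor known from macrophages, was at 28.5 to 53.5 CPM in mesothelial-type libraries, against 0 to 0.357 CPM in adventitial-type libraries, with Ptprc near 0 in the same libraries.

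On the adventitial side, the angiotensin converting enzyme gene Ace stood at 50.2, 113, 28.5 and 37 CPM in the mesothelial-type libraries, against 499 to 2014 CPM (median 953) in adventitial-type libraries (-4.56 ± 0.65). Pla1a, a phosphatidylserine phospholipase, was at 4.63 to 31.5 CPM in mesothelial-type libraries, against 163 to 614 CPM in adventitial-type libraries, and the BMP-responsive membrane gene Tmem100 at 4.02 to 22.2 CPM in mesothelial-type libraries, against 163 to 324 CPM in adventitial-type libraries. The receptor kinase Axl (-2.32 ± 0.39) and the gelatinase gene Mmp2 (-2.87 ± 0.31) were lower in the mesothelial-type libraries as well.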
